A study of Mus musculus with 6 samples.

Results

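The 10 genes described here include those of the subunits of the transcription factor NF-kB (Nfkb1, Nfkb2, Rel, Rela and Relb). Nfkbia, Nfkbie and Tnfaip3 encode inhibitors that act on the pathway and are themselves induced by it. The IkB family gene Nfkbiz, also induced, is grouped with them. Il1r1 encodes an interleukin-1 receptor, which feeds into the pathway. The genes were taken by symbol from a fixed list, and all 10 were found among the 24067 symbols present in both deposited expression tables. Polyadenylated RNA was sequenced from satellite cells of mouse muscle, the stem cells that repair this tissue. There were 4 groups of 1 library each: activated satellite cells after 36 h in culture (ASC) labelled iKO for Yy1, wild-type (WT) ASC, freshly isolated satellite cells (FISC) labelled iKO for Yy1, and WT FISC. A list of YY1 binding peaks came from 1 chromatin immunoprecipitation library and 1 input library of ASC labelled C57. For the RNA libraries, the sources used here do not give the allele and driver behind the iKO label, the strain and age of the animals, or whether animals were pooled. With 1 library per group no difference has a replicate check, and no test was made.

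NF-kB proteins bind DNA as dimers. In resting cells the IkB proteins, of which Nfkbia encodes IkB-alpha and Nfkbie IkB-epsilon, hold them in the cytoplasm; signals from interleukin-1, tumour necrosis factor and Toll-like receptors activate IkB kinases, which mark the IkB proteins for destruction. The released dimers switch on cytokine, chemokine and survival genes and also the genes of their own inhibitors, which closes a feedback loop. In skeletal muscle the pathway is known for its activity after injury and in wasting, and in cultured myoblasts RelA has been described to drive transcription of Yy1, the gene targeted here.

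Promoters are shown because NF-kB is known to act on several of these genes through kappaB elements. RefSeq promoter sequences (GRCm38.p6, 250 bases before to 50 bases after a start site) were matched for 7 of the 10 genes, with 11 promoters in all; Nfkb1, Relb and Nfkbiz had no entry. The kappaB consensus was searched on both strands. At least 1 match lay in 8 of the 11 promoters and in 6 of the 7 genes, where overlapping Nfkb2 promoters share a match. Of 32851 mouse promoters of the same length 2.46% held one, a share of promoters and not of genes. Several of the genes were listed as known to be induced by NF-kB, so a higher share is no independent result. The shown promoters belong to an IkB gene, a subunit gene, the A20 gene Tnfaip3 and Il1r1. Capitals mark stretches that match the consensus, and all are written 5′ to 3′ on the strand of the gene.
Nfkbia, chr12:55492598-55492897, minus strand: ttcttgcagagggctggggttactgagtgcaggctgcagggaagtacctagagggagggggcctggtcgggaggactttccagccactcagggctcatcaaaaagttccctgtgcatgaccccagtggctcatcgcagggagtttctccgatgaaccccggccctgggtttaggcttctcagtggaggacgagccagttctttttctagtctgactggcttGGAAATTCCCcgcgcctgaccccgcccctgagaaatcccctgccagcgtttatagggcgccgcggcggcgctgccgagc
Nfkb2, chr19:46304487-46304786, plus strand: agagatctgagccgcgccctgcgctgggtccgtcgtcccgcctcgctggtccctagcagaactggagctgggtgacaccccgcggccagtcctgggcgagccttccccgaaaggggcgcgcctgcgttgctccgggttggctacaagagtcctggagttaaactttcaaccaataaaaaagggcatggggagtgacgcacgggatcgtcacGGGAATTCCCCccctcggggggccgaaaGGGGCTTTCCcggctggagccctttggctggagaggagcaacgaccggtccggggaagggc
Tnfaip3, chr10:19015361-19015660, minus strand: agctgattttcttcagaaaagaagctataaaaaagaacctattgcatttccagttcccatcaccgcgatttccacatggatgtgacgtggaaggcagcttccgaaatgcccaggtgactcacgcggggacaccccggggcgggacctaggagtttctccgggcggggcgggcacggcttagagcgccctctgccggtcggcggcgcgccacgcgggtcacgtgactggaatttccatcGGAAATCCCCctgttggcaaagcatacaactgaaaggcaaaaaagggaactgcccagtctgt
Il1r1, chr1:40266336-40266635, plus strand: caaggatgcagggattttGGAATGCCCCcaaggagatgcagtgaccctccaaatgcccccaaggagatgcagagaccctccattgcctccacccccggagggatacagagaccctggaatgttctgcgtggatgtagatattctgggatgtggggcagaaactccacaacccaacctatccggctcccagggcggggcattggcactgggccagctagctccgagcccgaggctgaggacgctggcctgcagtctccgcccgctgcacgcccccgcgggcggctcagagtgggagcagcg

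In Nfkbia the match reads GGGAATTTCC on the opposite strand, 29 to 20 bases before the start site. In Tnfaip3 it reads GGGGATTTCC on the opposite strand, 12 to 3 bases before the start site. The shown Nfkb2 promoter had 2 stretches, the second reading GGGGCTTTCC from 11 to 2 bases before the start site, and the other 2 listed Nfkb2 promoters shared a GGGACTTTCC because they overlap. Rel, which encodes c-Rel, held matches on both strands between 92 and 82 bases before its start site, among them GGGGATTTCC. Nfkbie held GGGGGATTCC from 106 to 97 bases before its start site. The match in the second Il1r1 promoter, GGGGCATTCC, lay far from the start site at 232 to 223 bases before it, and the first Il1r1 promoter, the second Tnfaip3 promoter and the single Rela promoter had none. A search for AANATGGC, a motif bound by YY1, found no match in any of the 11 promoters on either strand, while 6.05% of all promoters held one. A match is a description of letters in these windows and not evidence of binding.

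Levels are given as deposited, in FPKM, a fragment count divided by transcript length and library size. Between 10657 and 10947 genes reached 1 FPKM per library. The Yy1 transcript stood at 2.03 FPKM in the ASC iKO and 55.2 in the ASC WT library, and at 20.1 FPKM in the FISC iKO and 51.0 in the FISC WT library. The FISC iKO library thus kept more of the targeted transcript than the ASC iKO library. Mir762 alone made up 39.8% of the FPKM sum in the ASC iKO library and was left out of the sums used to scale across states. Of 10 satellite cell markers, 8 reached 1 FPKM in the ASC iKO library and all 10 in each of the other libraries. The Y-linked Ddx3y was listed at 0 in both ASC libraries and stood at 28.3 and 62.1 FPKM in the FISC iKO and WT libraries. Xist, expressed from the inactive X chromosome, stood at 31.2 and 97.5 FPKM in the ASC iKO and WT libraries and at 65.4 and 62.3 FPKM in the FISC iKO and WT libraries. The sources used here do not give the sex of the animals, and its part in the differences was not tested. The Y-linked transcript was present in the FISC libraries only, so differences between states cannot be told apart from a difference in sex. Within pairs, Ddx3y was lower in the FISC iKO than in the FISC WT library, and Xist was lower in the ASC iKO than in the ASC WT library. The part of sex in the iKO over WT ratios was not tested either. In bulk RNA, fewer expressing cells and less RNA per cell cannot be told apart.

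All 10 genes were lower after culture than in freshly isolated cells. For each of them both FISC values lay above both ASC values. Levels of genes are compared here per length of transcript, as FPKM. In the FISC WT library 9 of the 10 stood at or above the 90th percentile of genes with at least 1 FPKM, and 8 did so in the FISC iKO library, while none did in either ASC library. The exception in both FISC libraries was Rel; in the FISC iKO library Il1r1 was the other one, at percentile 77.7.

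Among the subunit genes, Nfkb1 and Rela had the highest levels in freshly isolated cells. Nfkb1, the precursor of p50, stood at 25.3 FPKM in the ASC iKO, 48.6 in the ASC WT, 217 in the FISC iKO and 456 in the FISC WT library. Rela, the p65 subunit with a transactivation domain, stood at 52.4 FPKM in the ASC iKO, 41.4 in the ASC WT, 336 in the FISC iKO and 393 in the FISC WT library. The FISC WT library thus had the highest level of both genes, and the lowest level fell in the ASC iKO library for Nfkb1 but in the ASC WT library for Rela. Nfkb2, the precursor of p52 in the non-canonical branch, stood at 49.7 FPKM in the ASC iKO, 71.5 in the ASC WT, 175 in the FISC iKO and 237 in the FISC WT library. Relb, the usual partner of p52, stood at 24.0 FPKM in the ASC iKO, 14.5 in the ASC WT, 120 in the FISC iKO and 172 in the FISC WT library. Rel was the lowest of the 10 in every library, at 0.658 FPKM in the ASC iKO, 1.64 in the ASC WT, 9.29 in the FISC iKO and 11.5 in the FISC WT library. The table gives Nfkb2 the same locus as Psd (chromosome 19, 46379227 to 46401646, mm9), which was listed at 1.55 and 1.20 FPKM in the ASC iKO and WT libraries and 9.48 and 11.1 FPKM in the FISC iKO and WT libraries; no other member overlapped another listed gene.

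Among the inhibitors and Nfkbiz, Nfkbia had the highest level in every library. Nfkbia (chromosome 12, 56590396 to 56593634, mm9) stood at 96.2 FPKM in the ASC iKO, 68.5 in the ASC WT, 324 in the FISC iKO and 326 in the FISC WT library. It was the highest of the 10 genes in the ASC iKO library, and among the 3 highest in the others. Nfkbie stood at 4.07 FPKM in the ASC iKO, 8.18 in the ASC WT, 79.6 in the FISC iKO and 132 in the FISC WT library. Nfkbiz, which encodes the nuclear IkB-zeta, a cofactor for a subset of target genes, stood at 7.25 FPKM in the ASC iKO, 6.22 in the ASC WT, 134 in the FISC iKO and 135 in the FISC WT library. Within each state the Nfkbiz values of the iKO and WT libraries lay close together. Tnfaip3, which encodes A20, an ubiquitin-editing enzyme that shuts off signalling above the IkB kinases, stood at 4.40 FPKM in the ASC iKO, 8.84 in the ASC WT, 128 in the FISC iKO and 104 in the FISC WT library. It was the single gene of the 10 with a higher iKO than WT value in freshly isolated cells together with a lower one in culture. Il1r1 (chromosome 1, 40281925 to 40373022, mm9) stood at 3.31 FPKM in the ASC iKO, 10.3 in the ASC WT, 29.2 in the FISC iKO and 104 in the FISC WT library, the widest relative gap between genotypes in each state.

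**Figure D1:**
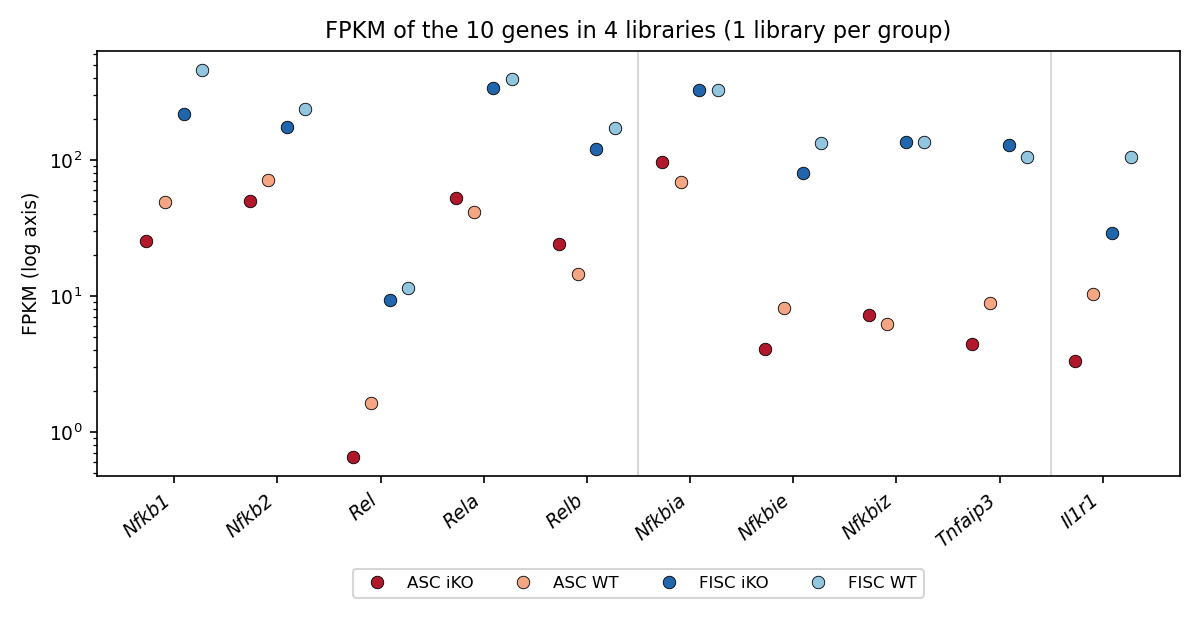
FPKM (log axis) of the 10 genes, with 1 point per library, from left to right ASC iKO, ASC WT, FISC iKO and FISC WT. For all 10 genes both FISC points (dark and light blue) lie above both ASC points (red and orange), and Rel is lowest throughout.

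The cultured state was then set against the fresh one within each genotype, on the scale of log2((FPKM + 1)/(FPKM + 1)) after scaling to equal sums. The tables of the states may have been normalized separately, so these ratios are descriptive. All 10 genes were at least 2-fold lower in the ASC than in the FISC library, both in iKO and in WT, where 28.3% of all measured genes were so in iKO and 15.8% in WT. At least 2-fold higher were 24.0% of genes in iKO and 33.8% in WT. The median over the 10 genes was −3.22 in iKO and −3.11 in WT, and the median over all measured genes was −0.04 in iKO and 0.50 in WT. Tnfaip3, Nfkbiz and Nfkbie had the lowest ratios in iKO, at −5.07, −4.53 and −4.48, that is 33.6-fold, 23.1-fold and 22.4-fold lower. All 3 lay below the central 95% of genes. In WT the same measure was −3.31 for Tnfaip3, −4.13 for Nfkbiz and −3.74 for Nfkbie, and these 3 and Relb, at −3.37, lay below the central 95%. The smallest differences were those of Nfkb2, at −2.29 in iKO and −1.61 in WT, and of Nfkbia, at −2.24 in iKO and −2.12 in WT.

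Each of the 10 genes stayed at least 2-fold lower under every other scaling, filter and pseudocount tried, but the split over all genes depended on the scaling. In iKO, 2836 genes were higher and 3341 lower; with sums that include Mir762 the counts were 1585 higher and 5072 lower (median of all genes −0.71), and without scaling 3980 higher and 2427 lower (median 0.38). In WT, 3995 were higher and 1865 lower; upper-quartile scaling gave 2715 higher and 2676 lower (median 0.08), and setting the median to 0 gave 2349 higher and 2874 lower. Markers of other cell types were lower after culture too. All 6 measured endothelial and all 8 measured pericyte and smooth muscle markers had ratios below 0 in both genotypes. Endothelial markers summed to 3.51 and 3.43 FPKM in the ASC iKO and WT libraries and 20.7 and 24.3 FPKM in the FISC iKO and WT libraries. Pericyte and smooth muscle markers summed to 63.3 and 98.2 FPKM in the ASC iKO and WT libraries. In the FISC iKO and WT libraries they summed to 206 and 237 FPKM. Of these, Tagln made up 107 and 137, Acta2 74.7 and 75.3, and Rgs5 6.12 and 9.31 FPKM. Of 11 fibroblast markers, 5 and 6 reached 1 FPKM in the ASC iKO and ASC WT libraries and 10 in each FISC library. Their summed level was 38.5 and 68.7 FPKM in the ASC iKO and WT libraries. In the FISC iKO and WT libraries it was 1219 and 1392 FPKM, of which Gsn alone made up 760 and 849. Dcn stood there at 144 and 104 FPKM and Pdgfra at 1.14 and 1.11. Pi16 was listed at 0 in both ASC libraries and Ly6a in the ASC iKO library. The part of other cells in the lower levels after culture was not tested. The satellite cell markers themselves summed to 1047 and 1233 FPKM in the ASC iKO and WT libraries and 2911 and 3047 FPKM in the FISC iKO and WT libraries. The leukocyte markers summed to 19.2 and 4.93 FPKM in the ASC iKO and WT libraries and 16.3 and 15.2 FPKM in the FISC iKO and WT libraries, over 15 genes found in the tables; the defining gene Ptprc was at 0 in both ASC libraries and at 0.116 and 0.0695 FPKM in the FISC iKO and WT libraries.

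**Figure D2:**
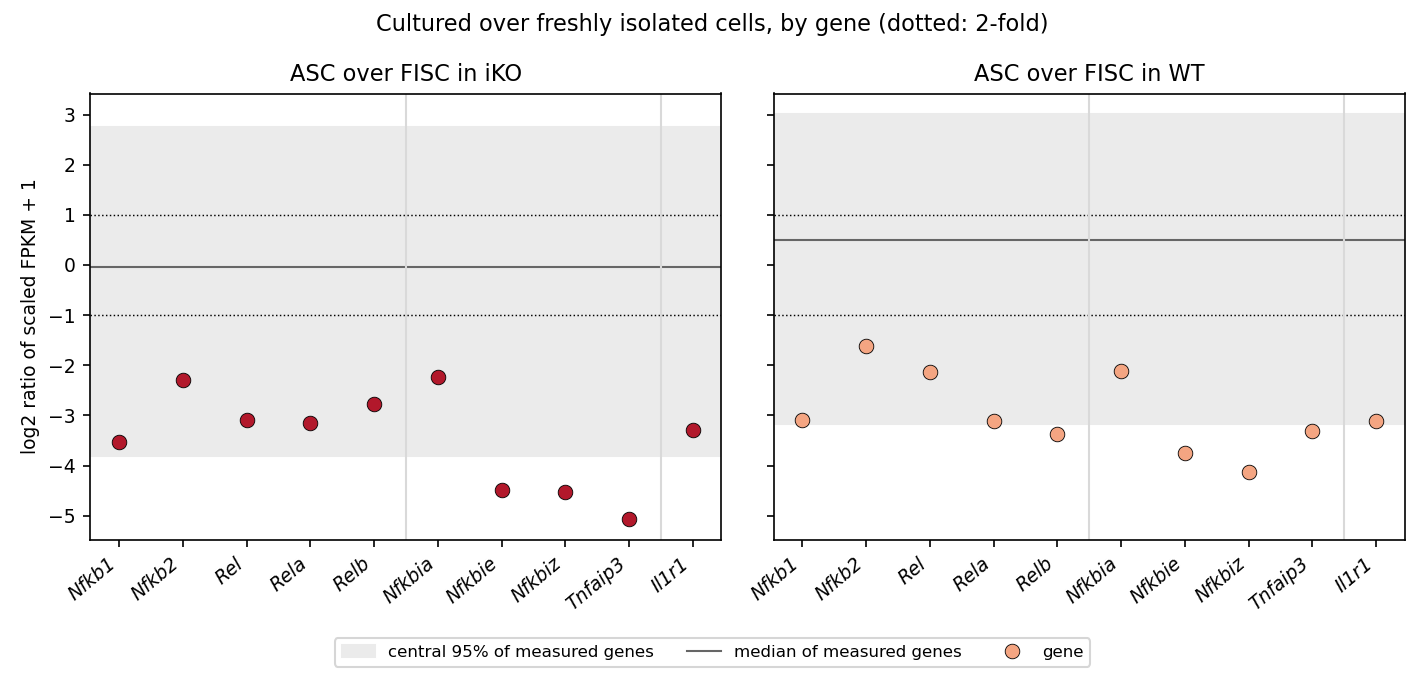
log2 ratio of scaled FPKM + 1, ASC over FISC, for each of the 10 genes within iKO (left) and WT (right); the grey band holds the central 95% of measured genes and the line their median. All points lie below the dotted 2-fold line, with Tnfaip3 lowest in iKO at −5.07 and Nfkbiz lowest in WT at −4.13.

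The balance among the subunits differed between libraries. The 5 subunit genes summed to 152 FPKM in the ASC iKO, 178 in the ASC WT, 857 in the FISC iKO and 1269 in the FISC WT library. Nfkb1 made up 16.7% of that sum in the ASC iKO and 27.4% in the ASC WT library, and 25.3% in the FISC iKO and 35.9% in the FISC WT library, so that its share was smaller in iKO than in WT in both states. Rela made up 34.5% in the ASC iKO and 23.3% in the ASC WT library, and 39.2% in the FISC iKO and 30.9% in the FISC WT library. Per FPKM of Rela there were 0.484 FPKM of Nfkb1 in the ASC iKO against 1.17 in the ASC WT library, and 0.645 in the FISC iKO against 1.16 in the FISC WT library. The share of Nfkb2 was larger after culture, at 32.7% and 40.3% in the ASC iKO and WT libraries and 20.4% and 18.7% in the FISC iKO and WT libraries. Nfkbia stood at 1.84 and 1.65 FPKM per FPKM of Rela in the ASC iKO and WT libraries, and at 0.964 and 0.830 in the FISC iKO and WT libraries. Scaling between libraries leaves these within-library ratios as they are, but locus length bears on them: with the median of like locus lengths subtracted, the ASC log2 ratios of iKO over WT were −0.50 for Nfkb1 and 0.08 for Rela, in place of −0.91 and 0.33.

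**Figure D3:**
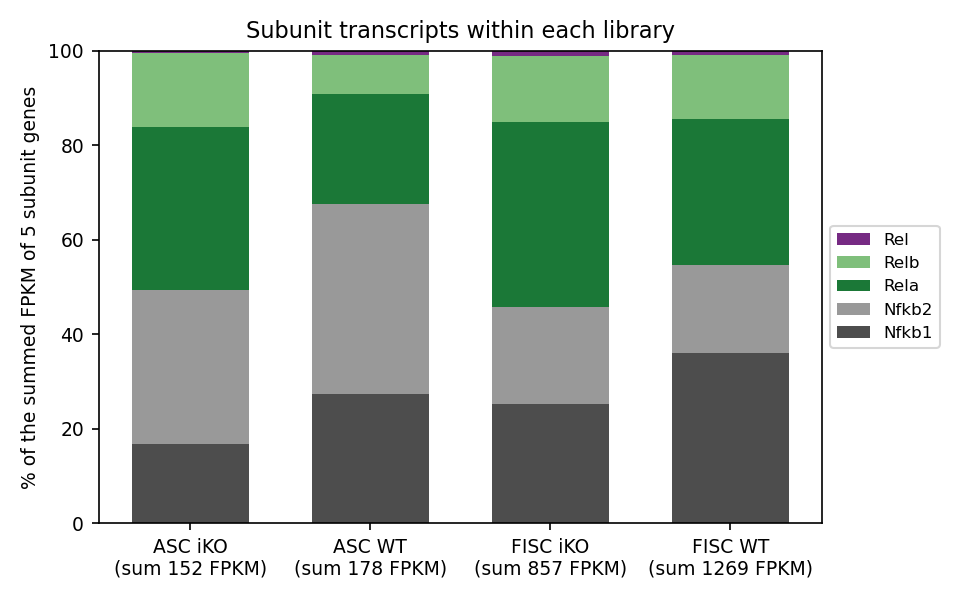
Share (%) of the summed FPKM of the 5 subunit genes taken by each, with 1 stacked bar per library and the sum below it. The dark Nfkb1 part is smaller in each iKO library than in its WT library (16.7% and 27.4% in ASC, 25.3% and 35.9% in FISC), and the green Rela part is larger.

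In freshly isolated cells the question was how the genes differ with Yy1 lower before culture. Of the 10 genes, 9 had a lower level in the iKO than in the WT library and 2 were at least 2-fold lower, Il1r1 and Nfkb1. Across all 11229 measured genes 0.721% were at least 2-fold lower and 0.677% at least 2-fold higher. Il1r1 had a log2 ratio of −1.80, 3.48-fold lower, and Nfkb1 one of −1.07. Nfkbie, at −0.72, also lay below the central 95% of genes, which ran from −0.70 to 0.64. Relb stood at −0.51, Nfkb2 at −0.44, Rel at −0.28 and Rela at −0.22, so all 5 subunit genes had ratios below 0. Nfkbia and Nfkbiz were both at −0.01, and upper-quartile scaling put both at 0.04. Tnfaip3 was above 0 at 0.29. The median over the 10 genes was −0.36, and over all measured genes 0.00 to 2 decimals. The ratio of Il1r1 was known when the genes were chosen and is no independent evidence.

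The fibroblast markers were also slightly lower in that iKO library, with a median log2 ratio of −0.29 over 10 measured genes, 8 of them below 0 and none at least 2-fold lower. The satellite cell markers had a median of −0.02. The part of other cells in these ratios was not tested.

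In activated cells 1 of the 10 genes, Il1r1, was at least 2-fold lower in the iKO library and none was higher, where 8.26% of 11215 measured genes were at least 2-fold lower and 8.74% at least 2-fold higher. The share of members past 2-fold is therefore near that of all genes. The log2 ratio of Il1r1 was −1.38, 2.61-fold lower. It was −0.88 with a pseudocount of 5 and −0.97 after subtracting the median of genes of like locus length, both short of 2-fold. Nfkb1 stood at −0.91, Tnfaip3 at −0.87 and Nfkbie at −0.86, and with upper-quartile scaling these 3 passed 2-fold at −1.09, −1.03 and −1.02. With the median of like locus lengths subtracted, Nfkb1 was at −0.50 and Tnfaip3 at −0.98, and Nfkbie, at −1.25, was the single gene of the 10 past 2-fold in place of Il1r1. With upper-quartile scaling all genes shifted by a median of −0.15, with 607 higher and 1347 lower in place of 980 higher and 926 lower. Rel stood at −0.67, from 0.658 and 1.64 FPKM in the iKO and WT libraries, and at −1.20 with a pseudocount of 0.1. On the other side, Relb stood at 0.69, Nfkbia at 0.48, Rela at 0.33 and Nfkbiz at 0.19. Nfkbia was the one gene of the 10 whose direction depended on the setting, at −0.19 once the median of 0.67 in its decile of locus length, the shortest, was subtracted. All 10 ratios lay inside the central 95% of genes, which ran from −1.53 to 1.38.

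In the ASC pair satellite cell markers had a median of −0.59, with 9 of 10 below 0, and fibroblast markers had a median of −0.68 over 6 measured genes. At least 2-fold lower in iKO were 2 of the 10 satellite cell markers and 3 of the 6 fibroblast markers, against 8.26% of all measured genes. The lowest satellite cell marker was Pax7, at 6.19 FPKM in iKO and 28.3 in WT, a log2 ratio of −2.03. Of the 15 leukocyte markers found, 4 were measured in this pair. At least 2-fold higher in iKO were 3 of these 4, against 8.74% of all measured genes. With a pseudocount of 5 or locus length taken into account none was. The 2 highest ratios were those of Cd14, at 9.75 FPKM in iKO and 2.80 in WT, and Cd68, at 5.16 in iKO and 1.36 in WT. Ptprc, Adgre1, C1qa, Tyrobp and S100a8 were at 0 in both ASC libraries. The part of cell composition in the ratios of the 10 genes was not tested.

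The 2 pairs share no library. Set side by side, Nfkb1, Nfkb2, Rel, Nfkbie and Il1r1 were lower in the iKO library in both states, with Il1r1 lowest each time. In ASC that order did not hold with locus length taken into account, where Nfkbie was lowest at −1.25 and Il1r1 stood at −0.97. Rela, Relb, Nfkbia and Nfkbiz were lower or level in fresh cells and higher in activated ones, and Tnfaip3 was the reverse. The gap between the states, ASC ratio minus FISC ratio, was widest for Relb at 1.20 and for Tnfaip3 at −1.16, and it was not tested.

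**Figure D4:**
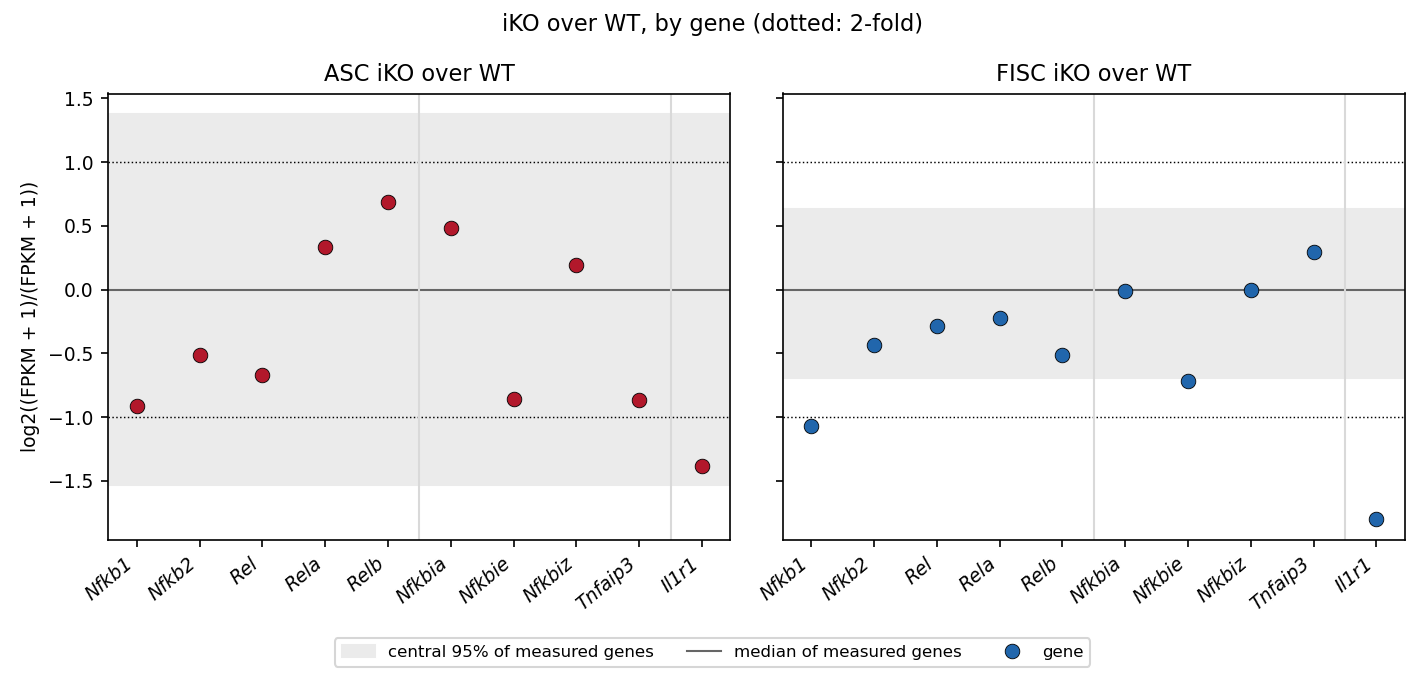
log2((FPKM + 1)/(FPKM + 1)), iKO over WT, for each of the 10 genes in ASC (left) and FISC (right); the grey band holds the central 95% of measured genes, which is wider in ASC (−1.53 to 1.38) than in FISC (−0.70 to 0.64). Il1r1 is lowest in both panels; Il1r1, Nfkb1 and Nfkbie lie below the band in FISC and none does in ASC.

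The wider pathway was described with 7 further lists holding 111 genes besides the 10. Of 84 measured in fresh cells 13 were at least 2-fold lower in the iKO library and none higher, and of 79 measured in activated cells 5 were lower and 4 higher, against the shares over all genes given above. The ligands of the classical branch were hardly present: Tnf, Lta, Il1a and Il1b did not exceed 0.488 FPKM in any library. The ligand Tnfsf12, known as TWEAK, stood at 7.01 and 4.75 FPKM in the ASC iKO and WT libraries and at 21.5 and 13.9 FPKM in the FISC iKO and WT libraries. Il18 was at 3.79 and 1.54 FPKM in the ASC iKO and WT libraries, but at 2.89 and 5.70 FPKM in the FISC iKO and WT libraries. With 1 added to each value no ligand passed 2-fold in either pair; with a pseudocount of 0.1, 2 of 3 measured were higher in the ASC iKO library and 2 of 4 lower in the FISC iKO library.

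Of the receptors, 1 of 9 measured was at least 2-fold lower in the ASC iKO library, a share near the 8.26% of all genes, and 1 of 8 in the FISC iKO library. The ASC count was 3 with a pseudocount of 0.1 or upper-quartile scaling and 0 with a pseudocount of 5 or a filter at 5 FPKM. In fresh cells it was Tlr2, a sensor of bacterial lipoproteins, at 6.44 FPKM in iKO and 18.6 in WT, a log2 ratio of −1.40. In activated cells it was Il1rap, the co-receptor that pairs with Il1r1, at 1.64 FPKM in iKO and 4.35 in WT, a log2 ratio of −1.02. In fresh cells Il1rap stood at 3.31 FPKM in iKO and 3.35 in WT. Tnfrsf1b, a receptor for tumour necrosis factor, was at 4.66 and 9.67 FPKM in the ASC iKO and WT libraries and at 17.6 and 27.9 FPKM in the FISC iKO and WT libraries, within 2-fold on this scale. The TWEAK receptor Tnfrsf12a was the most abundant of those named, at 615 and 502 FPKM in the ASC iKO and WT libraries and at 1285 and 1396 FPKM in the FISC iKO and WT libraries.

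Counts past 2-fold in the signalling core are to be read beside the shares over all genes. These were 0.721% lower and 0.677% higher in fresh cells, and 8.26% lower and 8.74% higher in activated cells. In lists of this size, counts as low as those below do not set the lists apart from all genes. Among 23 adaptors and upstream kinases measured in fresh cells none passed 2-fold; Irak3, a brake on Toll-like and interleukin-1 receptor signalling, was lowest at 8.13 FPKM in iKO and 16.5 in WT. Among 24 in activated cells 1 passed, Map3k14, at 7.11 FPKM in iKO and 16.9 in WT (log2 ratio −1.14). It encodes the NIK kinase that starts the non-canonical branch. None passed with a pseudocount of 5 or with locus length taken into account. Tab1 and Sharpin were highest in both pairs, at log2 ratios of 0.62 and 0.56 in fresh cells and 0.63 and 0.66 in activated ones. Ratios below 0 were found for 15 of 23 genes in fresh cells and 13 of 24 in activated ones. No IkB kinase gene passed 2-fold in either pair, with Ikbkb at 18.2 and 14.7 FPKM in the ASC iKO and WT libraries and at 17.5 and 18.6 FPKM in the FISC iKO and WT libraries. Nor did the other IkB family genes. Bcl3, a nuclear IkB protein, was at 4.76 and 6.65 FPKM in the ASC iKO and WT libraries but at 162 and 148 FPKM in the FISC iKO and WT libraries.

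Among 12 other inhibitors measured in each pair, none passed 2-fold in fresh cells, where Tnip1, a partner of A20, was lowest at 66.0 FPKM in iKO and 127 in WT. In activated cells 3 were at least 2-fold higher and 2 lower, where 8.74% of all measured genes were higher and 8.26% lower. The counts were 2 higher and 1 lower with a pseudocount of 5, and 2 higher and 2 lower with upper-quartile scaling. Of the 3 higher, Commd1 stood at 176 FPKM in iKO and 85.1 in WT, a log2 ratio of 1.04. Otulin, a deubiquitinase for linear chains, was at 45.9 FPKM in iKO and 18.3 in WT, and Nkiras1, a small GTPase-like protein that binds IkB, at 6.81 in iKO and 2.36 in WT. Itch, an ubiquitin ligase that works with A20, was at 5.68 FPKM in iKO and 17.5 in WT, and Nkiras2 at 1.67 in iKO and 5.03 in WT.

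The induced target genes made up 12 of the 13 pathway genes past 2-fold in fresh cells. Of 29 measured 12 were at least 2-fold lower in the FISC iKO library, none was higher, and the median log2 ratio was −0.69. The list was drawn up with some of these values known and is not independent evidence. The lowest were the neutrophil chemokines Cxcl3, at 8.19 FPKM in iKO and 104 in WT, and Cxcl5, at 2.99 in iKO and 35.0 in WT. The other 10, named as a complete set, were Cxcl2, Tnfaip2, Csf1, Ptx3, Csf2, Cxcl1, Lif, Csf3, Ccl2 and Ptgs2, of which Csf2, Csf3 and Ptgs2 stayed under 4 FPKM in both FISC libraries. At the other end, Irf1 was at 94.0 FPKM in iKO and 84.5 in WT and Bcl2l1 at 4.84 in iKO and 4.00 in WT. In activated cells 1 of 24 measured was lower, the adhesion molecule Vcam1, also on the satellite cell marker list, at 27.6 FPKM in iKO and 62.2 in WT, 1 was higher, Csf2 at 2.39 in iKO and 0.387 in WT, and the median was 0.00. The count higher was 2 with a pseudocount of 0.1, and 0 with a pseudocount of 5, a filter at 5 FPKM or locus length taken into account. Between states, 20 of 29 in iKO and 24 of 30 in WT were at least 2-fold lower in the ASC than in the FISC library, and 4 were higher in each genotype. Over all measured genes 28.3% were lower in iKO and 15.8% in WT, and 24.0% were higher in iKO and 33.8% in WT.

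**Figure D5:**
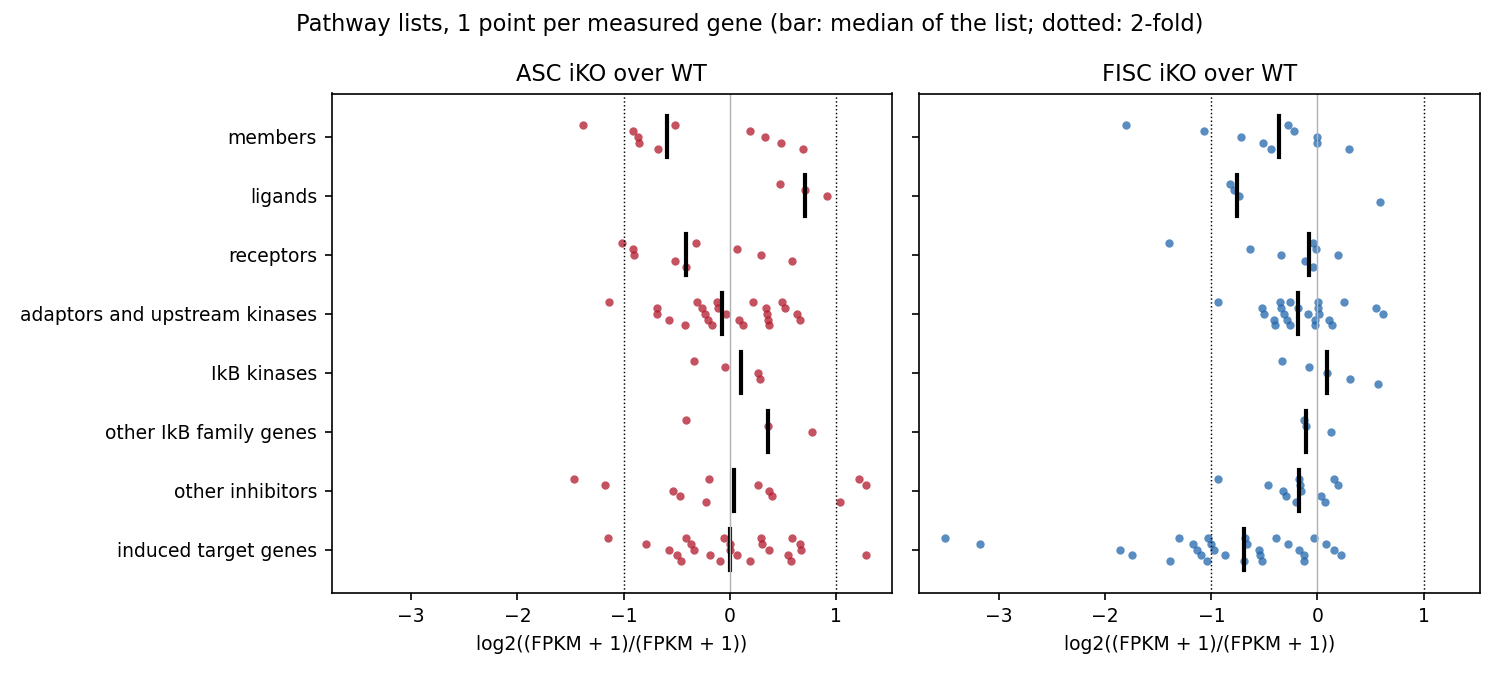
log2((FPKM + 1)/(FPKM + 1)), iKO over WT, of every measured gene of the 10 members and 7 pathway lists, in ASC (left) and FISC (right), with 1 point per gene and a bar at the median of the list. In FISC the induced target genes reach furthest to the left, with a median of −0.69, and in ASC their median is 0.00.

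None of the 10 genes had a YY1 peak in its locus or within 2 kb of either end, where 9.85% of 11215 genes measured in ASC had one, a background too low for a count of 0 among 10 genes to set them apart. The nearest summit to Nfkb2 lay 11.5 kb away, in a peak with a 6.93-fold enrichment and a −log10 q of 6.51. Within 50 kb there were 3 genes with a summit, Nfkb2, Rela at 27.4 kb and Nfkbie at 48.9 kb, against 22.7% of all genes. The peak nearest to Nfkbie was the strongest of the 10 nearest ones, at 13.5-fold and a −log10 q of 20.2, and the one nearest to Rela was weak, at 4.11-fold and a −log10 q of 0.246. The summits nearest to Il1r1 and Nfkb1 were 885 kb and 202 kb away. Enrichment and q are the authors' values for the peak list. The shares of genes above count peaks of any q, and the median −log10 q of the 2031 peaks was 0.246. A −log10 q of at least 5 was reached by 171 peaks. With only those, none of the 10 genes had a peak within 2 kb, against 1.95% of measured genes.

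Genes with the most similar pattern were sought by Euclidean distance between log2(FPKM + 1) values over the 4 libraries, each centred on its own mean. Among 9270 genes with at least 5 FPKM in a library, the nearest to Il1r1 was Nfkb1, at a distance of 0.625 in log2 units. Tlr2 at 0.626 and Sh3pxd2b at 0.637 were almost as near. Il1r1 lay further from its nearest gene than any other of the 10. The nearest to Nfkb1 were Sh3pxd2b at 0.203 and Plagl1 at 0.279. Among the 10 genes themselves the closest pair was Rela and Relb, at 0.330. Tnfaip3 was nearest to Fgfr4, a satellite cell marker, at 0.0708, with Fgfr4 at 9.52 and 18.8 FPKM in the ASC iKO and WT libraries and 259 and 199 FPKM in the FISC iKO and WT libraries. Nfkb2 was nearest to Ptpn13 at 0.0725, followed by Aff1 at 0.0933 and Tank, an inhibitor of TRAF signalling, at 0.102. Nfkbia was nearest to Id4 at 0.0948, Nfkbiz to Cyp2d22 at 0.154, Nfkbie to Pmp22 at 0.324, Relb to Rcan1 at 0.153 and Rel to Kcnt2 at 0.0699. With 4 libraries many genes have similar patterns, and the distances are descriptions.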

How the data were processed

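Polyadenylated RNA of 4 satellite cell libraries and 1 YY1 immunoprecipitation with 1 input were used. The deposited expression values are FPKM, with 1 table for each state, per the file headers. Per the submitters' processing notes, mm9 is the one build named, and MACS2 2.1.0, Cufflinks 2.2.1 and TopHat2 are listed with no role; annotation and strand setting are not given in those sources. The authors' peak list has the narrowPeak layout, with a score, a fold enrichment (ratio), −log10 p and −log10 q as deposited; the lowest −log10 p was 4.02 among 2031 peaks. Starts of loci were raised by 1 to count from 1.

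Ratios are log2((FPKM + 1)/(FPKM + 1)) for genes with at least 1 FPKM in a library of the pair, which understates the ratio of low genes. Higher or lower means at least 2-fold, a rule of size. For ASC over FISC, FPKM were scaled to equal sums, leaving out genes with over 10% of a library's sum. Total depth is unknown. Where neither library exceeded 0.3 FPKM, the most common ratio of low values would put the iKO library at 1 read per WT read in FISC (15.6% of 1542 genes) and at 0.667 in ASC (7.44% of 1573 genes), an estimate that rests on a minority of genes. Locus lengths were cut into 10 equal groups. Scripts used Python 3.11.15 and pandas 2.3.3. The unscaled ratio was checked on simulated data with set fold changes and no noise. The scaling and locus length steps were not checked in that way.

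The members and lists were chosen with earlier results of these data known. Genes eligible to be named were the 10 members and the 2 highest and 2 lowest measured genes of each pathway list in each iKO pair. Up to 3 genes nearest in pattern to each member, among genes with at least 5 FPKM in a library, were eligible too. Not all eligible genes of the pathway lists are named above. Further named genes (among them the complete set of lower targets, the ligands near 0, Ptprc, Pi16, Ly6a, Psd, Ddx3y and Mir762) were chosen after their values were seen. The gene nearest in pattern to Rela is not reported here.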

Additional observations from a re-analysis of the deposited data

Results flagged for a closer look

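For 5 of the 10 genes the iKO over WT ratio had the opposite sign in the 2 states, which share no library. The ASC log2 ratio minus the FISC log2 ratio was 1.20 for Relb (0.69 in ASC, −0.51 in FISC), −1.16 for Tnfaip3 (−0.87 in ASC, 0.29 in FISC), 0.56 for Rela (0.33 in ASC, −0.22 in FISC), 0.49 for Nfkbia (0.48 in ASC, −0.01 in FISC) and 0.20 for Nfkbiz (0.19 in ASC, −0.01 in FISC). With 1 library per group these differences were not tested. The FISC ratios of Nfkbia and Nfkbiz took either sign under other scalings, as did the ASC ratio of Nfkbia with locus length taken into account.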

How the results depend on the processing

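In the FISC pair all 10 genes kept their side of the 2-fold line, and Il1r1 and Nfkb1 stayed the 2 past it, under each of the 7 alternatives. In the ASC pair the number past 2-fold was 1 as reported, 2 with a pseudocount of 0.1, 0 with a pseudocount of 5 and 4 with upper-quartile scaling. Across states all 10 stayed at least 2-fold lower in each genotype under every alternative. No ratio past 2-fold changed sign. Of 319 recomputed ratios of single genes, 34 crossed the 2-fold line or moved by more than 1.5-fold, 12 of them with locus length taken into account and 10 with Mir762 kept in the sums. The count of induced target genes at least 2-fold lower in iKO stayed within 1.5 times its reported value in both pairs. Over all genes, the FISC pair had 76 higher and 81 lower as reported, 194 and 217 with a pseudocount of 0.1, 26 and 35 with one of 5, and 43 and 60 with a filter at 5 FPKM. The ASC pair had 576 higher and 306 lower with a pseudocount of 5, and 632 and 750 with locus length taken into account. ASC over FISC with a pseudocount of 5 gave 1978 higher and 2120 lower in iKO and 2558 higher and 1104 lower in WT, and with locus length taken into account 2293 higher and 2802 lower in WT. Widening the peak window to 50 kb gave 3 genes with a YY1 peak in place of 0, while 5 kb, or only peaks with a −log10 q of at least 5, gave 0. The cause of these changes was not tested. No paired analysis was possible because each group is 1 library. FPKM carry no counting error here, so values under a few FPKM, as for Rel in culture, have an unknown precision.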
